A study of Mus musculus with 6 samples.

Results

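The Eph receptors and their ephrin ligands, the Slit ligands and their Robo receptors, and the netrins with their receptors were examined in neural crest stem cells (NCSC) and mesenchymal stem cells (MSC) grown from adult mouse bone marrow. Members were the probe sets annotated to exactly 1 gene of these families by symbol, which gave 76 of the 45101 probe sets on the array and 36 of 18193 genes, 23 of them receptors and 13 ligands. The series asks how alike the cell types are, with 3 Affymetrix arrays of NCSC and 3 of MSC. Both cell types came from the marrow of adult female C57BL/6 x SV129 mice aged 10 weeks, with the genotype wnt1/CRE-R26R-lacZ, in which Cre under Wnt1 control switches on a lacZ reporter in cells of neural crest descent. Cells received no treatment and were cultured in Mesencult for at least 5 passages, after which clones were selected. Whether replicates stem from different animals or clones is not given, so the p-values measure only the spread between these arrays, and if each cell type was 1 clone, clone and cell type cannot be told apart.

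Eph receptors are tyrosine kinases that bind ephrins on neighbouring cells. Ephrin-A ligands are held to the membrane by a lipid anchor and ephrin-B ligands span it, so that signals can pass into the ligand-bearing cell as well. Slits are secreted proteins that repel cells carrying Robo receptors, and netrins are laminin-related secreted proteins that attract or repel cells through Dcc, neogenin and the Unc5 receptors. These systems steer axons and migrating neural crest cells, set tissue boundaries, and act in blood vessels and in bone.

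Crest and glial markers separated the labelled cell types, while stromal markers were measured in both. All 4 of the measured crest and glial markers (Sox10, Foxd3, Erbb3 and Ngfr) were above a log2 intensity of 4, the limit used here for background, on all NCSC arrays, and their summed linear intensity was 18319 to 22986 in NCSC and 30.4 to 48.8 in MSC. In MSC only Sox10 passed the limit, just above it on MSC 2 (4.82) and MSC 3 (4.17), with 3.92 on MSC 1. All 5 measured stromal markers were above the limit in both cell types, with Vcam1, Pdgfra and Pdpn brighter in MSC, and Eng (means of 10.30 in NCSC and 5.61 in MSC) and Cd44 (14.56 in NCSC and 14.25 in MSC) brighter in NCSC. None of 7 endothelial and none of 4 epithelial markers was above the limit on any array. Of 7 macrophage and blood markers, Cd68 and Fcer1g were above it on all NCSC arrays, and Fcer1g also on all MSC arrays. Csf1r was above it on 2 NCSC and 2 MSC arrays (4.21, 4.82 and 3.998 in NCSC, 4.11, 3.20 and 4.10 in MSC). Ptprc, Itgam, Adgre1 and Tyrobp were above it on none. The summed intensity of the 7 markers was 534 to 589 in NCSC and 71.5 to 93.9 in MSC. Of 5 neuronal markers only Stmn2 was above the limit, on all MSC arrays, with sums of 24.2 to 25.1 in NCSC and 39.0 to 178 in MSC. The part of these markers in the results below was not tested. Among replicates, NCSC 3 had 4.98% and 4.63% of tested genes more than 2-fold from NCSC 1 and NCSC 2, and MSC 2 had 2.69% and 2.62% that far from MSC 1 and MSC 3.

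Of the 36 member genes, 18 had a probe set above the limit on at least 3 of the 6 arrays and were tested, 10 receptors and 8 ligands. In limma's test over all 10501 tested genes (Benjamini-Hochberg adjusted p under 0.05), 9 of these 18 were lower and 4 were higher in NCSC. The higher members were 2 receptors and 2 ligands, and without NCSC 2, MSC 1, MSC 2 or MSC 3 the 2 ligands were not called, which left 2 higher. Over all tested genes, 64.1% were called, 29.1% lower and 35% higher in NCSC. At 2-fold or more, 8 members were lower and 1 was higher, against 14% and 15.1% of all tested genes. The groups did not overlap for 9 members that were lower and 5 that were higher in NCSC, against 32% and 39.2% of all tested genes (71.2% together). The median difference, NCSC minus MSC, was -0.68 over the members tested and 0.056 over all genes tested, and the median size of the difference was 1.04 and 0.55 on the log2 scale. Of the tested members 4 were above the limit on all MSC arrays and on no NCSC array (3.09% of all tested genes), and 0 the other way round (3.13%). These 4 (Robo1, Epha3, Epha4 and Efna5) passed the filter only through the MSC arrays. They are among the 9 lower members and the 8 lower at 2-fold, and they enter the median of -0.68. Slit3, above the limit on 2 NCSC arrays only, was left out by the same filter, so these counts depend in part on the filter. No test was made of whether the members as a set differ from other genes. In these bulk cultures fewer cells expressing a gene and less RNA per cell cannot be told apart.

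**Figure D1:**
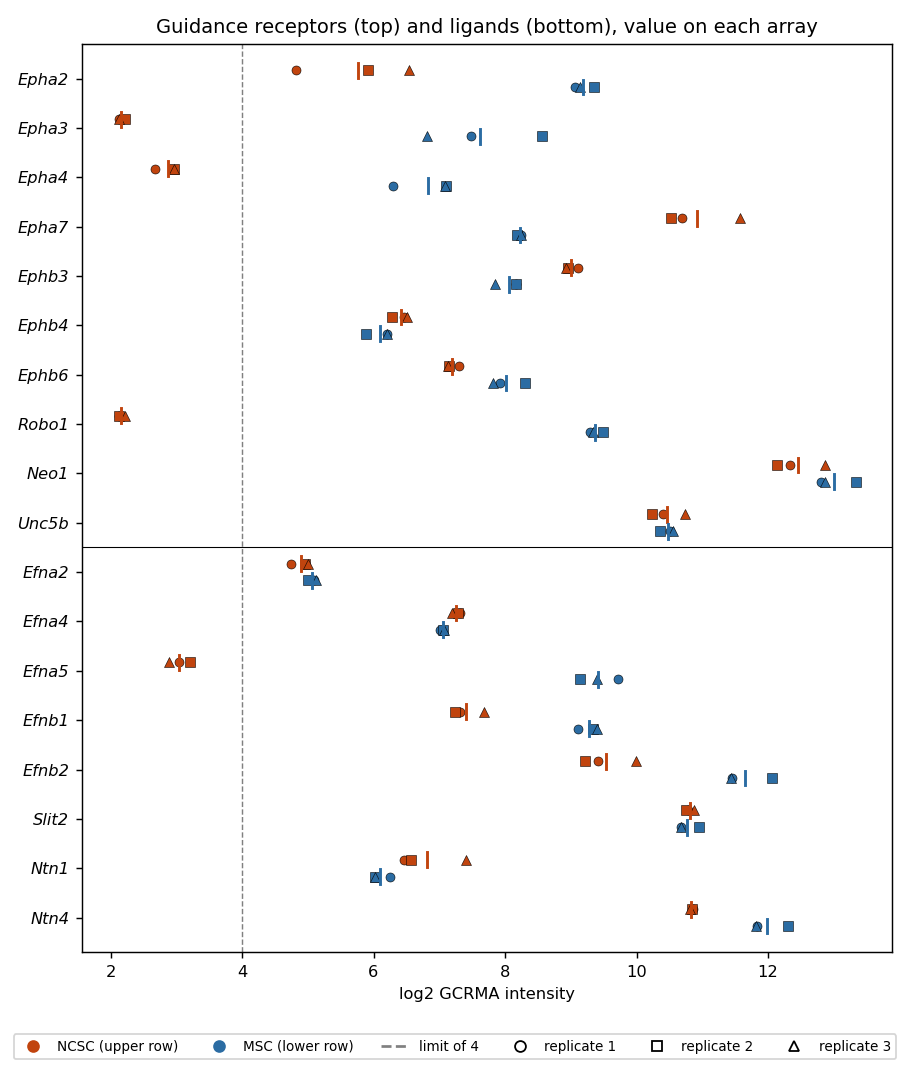
Log2 GCRMA intensity (horizontal axis) of the 18 tested member genes on each array, receptors above the line and ligands below it. Upper points of each gene are the 3 NCSC arrays and lower points the 3 MSC arrays, short bars are group means, and the dashed line is the limit of 4. Robo1, Epha3, Epha4 and Efna5 lie left of the limit on every NCSC array and right of it on every MSC array, and Epha7 lies further right in NCSC.

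Among the receptors 5 were lower and 2 were higher in NCSC, with 3 not called, against 29.1% lower and 35% higher over all tested genes. Upstream sequences are shown for 3 called receptors that differed in both directions. Robo1 was one under the limit in NCSC, and Epha7 and Ephb3 were the ones higher there. Each sequence is the 250 bases before the annotated start in RefSeq (GRCm38.p6, all on the plus strand). Capitals mark the E-box letters CANNTG, which read the same on both strands and which Snail, Twist and many other helix-loop-helix or zinc finger factors can bind.
Robo1, chr16:72662899-72663148: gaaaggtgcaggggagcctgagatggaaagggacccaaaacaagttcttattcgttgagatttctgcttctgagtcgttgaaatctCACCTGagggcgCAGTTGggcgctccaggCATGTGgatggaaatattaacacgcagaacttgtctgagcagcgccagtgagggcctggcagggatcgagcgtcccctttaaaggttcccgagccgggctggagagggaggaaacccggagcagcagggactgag
Epha7, chr4:28812881-28813130: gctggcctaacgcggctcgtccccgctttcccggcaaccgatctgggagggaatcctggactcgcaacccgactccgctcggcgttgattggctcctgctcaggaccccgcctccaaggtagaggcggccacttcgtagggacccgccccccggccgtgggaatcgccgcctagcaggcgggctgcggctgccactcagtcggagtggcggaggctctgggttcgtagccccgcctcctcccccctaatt
Ephb3, chr16:21204545-21204794: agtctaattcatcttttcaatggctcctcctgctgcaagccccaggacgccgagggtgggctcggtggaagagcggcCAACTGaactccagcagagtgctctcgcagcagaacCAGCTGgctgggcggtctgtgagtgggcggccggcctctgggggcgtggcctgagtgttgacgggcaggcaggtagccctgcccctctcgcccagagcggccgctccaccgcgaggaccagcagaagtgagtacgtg
Robo1 held 3 such matches and Ephb3 held 2, while Epha7 had none in this window, the first of the 2 listed for it. Robo1 held the most of all member windows, and those of Epha2, Epha3 and Epha4, also lower in NCSC, held 0. RefSeq windows were found for 17 of the 18 tested members, and 5 of these (29.4%) held a match. Of the first windows of the 8573 tested genes with one, 55.4% held it, and 66.2% of all 32851 RefSeq windows did. The letters ACAAAG or ACAATG, the core that SOX factors bind, were searched on both strands and stood in 3 member windows (17.6%), those of Efna2, Efna4 and Ntn4, against 16.2% of the tested genes' windows and 25.2% of all windows. The member windows were rich in G and C, with a median of 66.8%, against 60.4% for the tested genes and 52.4% for all windows. These matches are descriptions of letters in a window, and no binding was measured.

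Robo1 is a receptor for Slits. Its log2 intensity was 2.12, 2.12 and 2.23 on NCSC 1 to 3, against 9.29, 9.49 and 9.34 on MSC 1 to 3. NCSC were therefore at or near the lowest value of the table, 2.12, on every array, and the groups lay far apart. Robo1 was at least 41.5-fold lower in NCSC (limma, adjusted p = 3.53e-08), a bound taken from the MSC mean against a value of 4 for the NCSC arrays. The bound ran from 39.8 to 42.7 when single arrays were left out. The adjusted p beside this and the later bounds belongs to the fitted difference without a floor, not to the bound. With a floor at 4 the adjusted p in limma's test was 7.39e-08 for Robo1 and 0.000482 for Epha3. It was 0.000102 for Epha4 and 9.44e-07 for Efna5. The other Robo1 probe sets were under the limit on all arrays. Robo2 was under the limit on all arrays and highest on NCSC 3, with 2.12, 2.33 and 3.82 in NCSC against 2.12 on each MSC array. Robo3 and Robo4 did not reach the limit on any array. Robo4, a receptor of endothelial cells, was at 2.12 on all 6 arrays, as were the endothelial markers Pecam1, Cdh5, Kdr, Tek, Tie1 and Emcn.

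EphA receptors bind mainly ephrin-A ligands. All 4 that were tested were called, against 64.1% of all tested genes. Epha2, Epha3 and Epha4 were lower in NCSC and Epha7 was higher. Epha3 had log2 intensities of 2.12, 2.21 and 2.12 on NCSC 1 to 3, against 7.48, 8.57 and 6.81 on MSC 1 to 3. It was at least 12.3-fold lower in NCSC (limma, adjusted p = 9.09e-05), and the bound was 8.85-fold without MSC 2, the brightest array, and 16.3-fold without MSC 3. The Epha3 probe sets that were not kept were at 2.12 to 2.26 across all arrays, MSC included. Epha4, a receptor that binds ephrins of both classes, had 2.67, 2.97 and 2.97 in NCSC, against 6.29, 7.10 and 7.09 in MSC. NCSC stayed under the limit throughout, and Epha4 was at least 7.1-fold lower (adjusted p = 3.5e-05). Its probe sets that were not kept were at 2.12 to 2.74 across all arrays, MSC included.

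Epha2 had log2 intensities of 4.83, 5.91 and 6.54 on NCSC 1 to 3, against 9.07, 9.35 and 9.14 on MSC 1 to 3. Unlike Epha3 and Epha4 it was above the limit on every NCSC array, and it varied more between these arrays (SD 0.867, n = 3) than between MSC arrays (SD 0.144, n = 3). It differed by -3.43 ± 0.415 (SE), or 10.8-fold lower in NCSC (adjusted p = 0.000622).

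Epha7 had the largest positive difference of the tested members. Its log2 intensities were 10.69, 10.53 and 11.57 on NCSC 1 to 3, against 8.24, 8.19 and 8.25 on MSC 1 to 3. All NCSC arrays were above all MSC arrays, and NCSC 3 was the highest. The difference was 2.70 ± 0.27 (SE), or 6.5-fold higher in NCSC (limma, adjusted p = 0.000273). A second kept probe set of Epha7 had means of 7.24 in NCSC and 4.33 in MSC, and a difference of 2.91 ± 0.223. The remaining probe sets of this gene, dimmer and not tested, were also higher on every NCSC array than on any MSC array, at 3.90 to 5.06 in NCSC against 3.35 to 3.43 in MSC for the first, and 3.16 to 3.998 in NCSC against 2.15 to 2.17 in MSC for the second. Epha1, Epha5, Epha6, Epha8 and Epha10 had no value above the limit on any array. Of these, Epha6, Epha8 and Epha10 were at 2.12 on all 6 arrays.

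The EphB receptors, which bind ephrin-B ligands, differed by less than 2-fold. Ephb3 had log2 intensities of 9.11, 8.95 and 8.93 on NCSC 1 to 3, against 8.17, 8.17 and 7.85 on MSC 1 to 3. The groups did not overlap, and Ephb3 was higher in NCSC by 0.94 ± 0.119 (SE), or 1.91-fold (limma, adjusted p = 0.000768). Ephb6, an Eph receptor without kinase activity, had 7.30, 7.15 and 7.14 in NCSC, against 7.92, 8.30 and 7.81 in MSC. All NCSC arrays were under all MSC arrays, with a difference of -0.82 ± 0.143 (adjusted p = 0.00308). Ephb4, known from veins and as a receptor of ephrin-B2, had 6.46, 6.28 and 6.51 in NCSC, against 6.21, 5.89 and 6.20 in MSC. The Ephb4 values did not overlap, but it was not called (0.32 ± 0.123, 95% confidence interval 0.02 to 0.62, adjusted p = 0.0605). Ephb1 was under the limit on all arrays. Ephb2 was not analysed here.

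The netrin receptors that could be tested did not pass the threshold. Unc5b, which mediates repulsion by netrins, had log2 intensities of 10.41, 10.24 and 10.74 on NCSC 1 to 3, against 10.51, 10.36 and 10.55 on MSC 1 to 3. The ranges overlapped, and the difference was -0.01 ± 0.146 (SE) with a 95% confidence interval of -0.37 to 0.34 (limma, adjusted p = 0.951). Neogenin (Neo1), a receptor of netrins and of repulsive guidance molecules, had 12.34, 12.14 and 12.87 in NCSC, against 12.81, 13.33 and 12.86 in MSC. It was not called (-0.55 ± 0.231, 95% confidence interval -1.11 to 0.01, adjusted p = 0.0764), but without NCSC 3 it was called lower, at -0.76 (adjusted p = 0.0155, range over all settings 0.00458 to 0.219). Its brightest probe set carries the suffix Affymetrix uses for probes shared between transcripts. The classical netrin receptor Dcc was at 2.12 on every array, and Unc5a, Unc5c and Unc5d were under the limit.

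**Figure D2:**
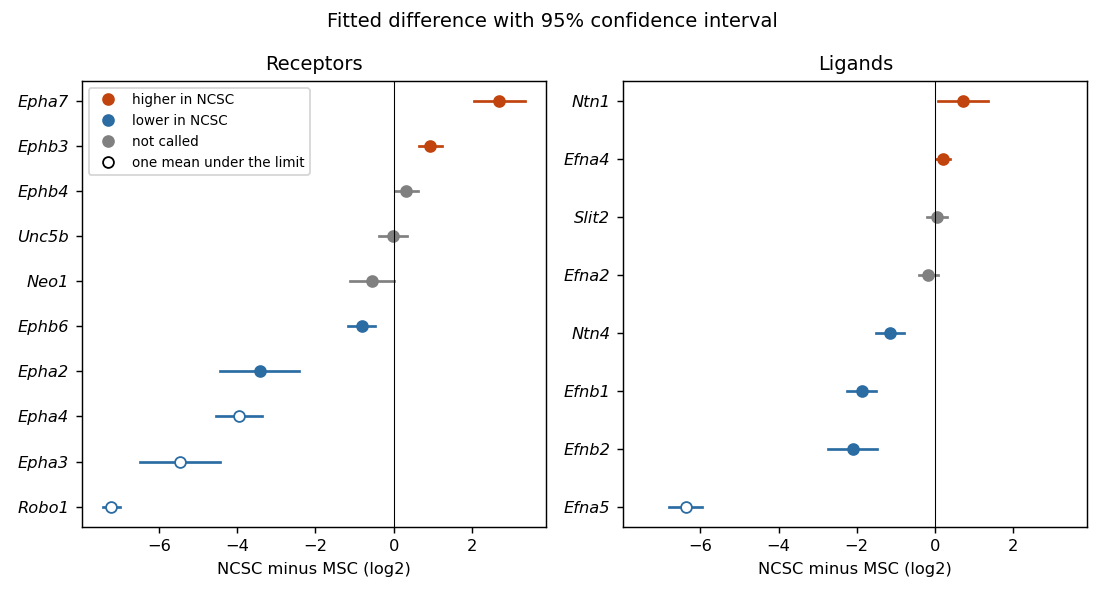
Fitted difference, NCSC minus MSC on the log2 scale, for the 10 tested receptors (left) and the 8 tested ligands (right), with bars for the 95% confidence interval. Filled coloured points were called, grey points were not, and open points had one group mean under the limit, so that their differences rest on the floor of the values. Of the filled points Epha2 is lowest at -3.43 and Epha7 highest at 2.70.

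Among the ligands 4 were lower and 2 were higher in NCSC, with 2 not called. Of all tested genes 29.1% were called lower and 35% higher. The 2 higher ligands, Efna4 and Ntn1, were close to the threshold and lost their calls in several settings. Of the 3 ephrin-B ligands the 2 that were tested, Efnb1 and Efnb2, were lower in NCSC. Efnb2, which spans the membrane and marks arteries, had log2 intensities of 9.41, 9.22 and 9.99 on NCSC 1 to 3, against 11.45, 12.05 and 11.43 on MSC 1 to 3. No NCSC array reached the MSC range, and the difference was -2.11 ± 0.257 (SE), or 4.31-fold lower in NCSC (limma, adjusted p = 0.000645). Efnb1, an X-linked ligand known for its part in craniofacial and skeletal boundaries, had 7.31, 7.23 and 7.68 in NCSC, against 9.10, 9.34 and 9.40 in MSC. It was 3.67-fold lower in NCSC (-1.87 ± 0.15, adjusted p = 0.00011). Efnb3 was under the limit on all arrays, between 2.23 and 2.37 in NCSC against 2.37 to 2.83 in MSC.

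The ephrin-A ligands differed by gene. Efna5, a high-affinity ligand of several EphA receptors, had log2 intensities of 3.04, 3.21 and 2.88 on NCSC 1 to 3, against 9.72, 9.14 and 9.39 on MSC 1 to 3. It was under the limit on every NCSC array and at least 42.8-fold lower there (limma, adjusted p = 8.82e-07). This rests on 1 probe set, as the other Efna5 probe set was at 2.12 on all 6 arrays. Efna4 had 7.31, 7.28 and 7.20 in NCSC, against 7.01, 7.06 and 7.08 in MSC. Although these ranges did not overlap, the difference was small (0.21 ± 0.0754, SE, or 1.16-fold) and close to the threshold (adjusted p = 0.0476). Efna4 was not called without NCSC 1, NCSC 2, MSC 1, MSC 2 or MSC 3 (adjusted p = 0.135, 0.111, 0.146, 0.0644 and 0.104, range over all settings 0.00713 to 0.179). Its call was also lost with the limit of 6 (0.053) and with each probe set tested on its own (0.0559). The same held for the trended and robust fit (0.179), quantile normalization (0.175) and a replicate block (0.13).

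Efna2 had 4.75, 4.96 and 5.00 in NCSC, against 5.09, 5.00 and 5.12 in MSC, close to the limit on all arrays, and was not called (-0.17 ± 0.0976, SE, 95% confidence interval -0.41 to 0.07, limma, adjusted p = 0.171). Efna1 did not reach the limit, at 3.23, 3.23 and 3.10 in NCSC against 3.74, 3.77 and 3.44 in MSC. Efna3 was above it on NCSC 3 alone, at 3.76, 3.10 and 4.67 in NCSC against 3.10, 3.06 and 3.04 in MSC.

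The netrin ligands were Ntn4, which was lower in NCSC, and Ntn1, whose call was close to the threshold. Ntn4, a netrin of basement membranes, had log2 intensities of 10.86, 10.84 and 10.81 on NCSC 1 to 3, against 11.83, 12.30 and 11.82 on MSC 1 to 3. It was 2.22-fold lower in NCSC (-1.15 ± 0.146, SE, limma, adjusted p = 0.000778). Ntn1, the best known attractant of commissural axons, had 6.46, 6.57 and 7.41 in NCSC, against 6.25, 6.02 and 6.02 in MSC. Every NCSC array was above every MSC array, with NCSC 3 the highest, and Ntn1 differed by 0.71 ± 0.259 (adjusted p = 0.0498), or by 0.42 without NCSC 3. It was not called without NCSC 2, MSC 1, MSC 2 or MSC 3 (adjusted p = 0.0639, 0.082, 0.124 and 0.127), nor without the filter (0.165). The call was also lost with each probe set tested on its own (0.054), with quantile normalization (0.072) and with a replicate block (0.0662). The range over all settings was 0.018 to 0.165.

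Slit2, a ligand of Robo1, was bright in both cell types. Its log2 intensities were 10.79, 10.75 and 10.88 on NCSC 1 to 3, against 10.68, 10.95 and 10.67 on MSC 1 to 3. The ranges overlapped, and the difference was 0.04 ± 0.104 (SE) with a 95% confidence interval of -0.21 to 0.30 (limma, adjusted p = 0.743). Slit3 was above the limit on 2 NCSC arrays and was not tested, at 6.34, 5.64 and 3.61 in NCSC against 2.12 on every MSC array. In the fit without a filter, over 18193 genes, Slit3 differed by 3.07 ± 0.784 (adjusted p = 0.0462). The MSC values lay on the floor, so the size of this difference rests on it. Slit1 was under the limit on all arrays.

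The 18 genes that were not tested were 13 receptors and 5 ligands. For 16 of them no probe set had a value above the limit on any array, and the others were Slit3 and Efna3, described above. In the fit without a filter 2 of the 18 genes were called, Slit3 higher and Efna1 lower in NCSC (-0.46 ± 0.109, SE, limma, adjusted p = 0.0364). Over all genes, that fit called 5827 of 18193. The Efna1 values lay under the limit throughout.

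Of the tested members 8 had more than 1 kept probe set. When each of the 18640 kept probe sets of the array was tested on its own, of which 60.1% were called, 19 of the 29 kept member probe sets were called. For 6 of the 8 genes every kept probe set was called in the same direction. Those of Efnb1 differed by -1.87 to -1.34, those of Efnb2 by -2.31 to -2.11 and those of Ntn4 by -1.48 to -1.15. Those of Epha3 differed by -5.47 to -3.81 and those of Epha4 by -4.88 to -3.96. The Epha3 and Epha4 differences, and the -1.34 of Efnb1, come from NCSC means under the limit, so their sizes rest on low values. For Neo1 (-0.75 to -0.32) and Unc5b (-0.08 to -0.01) no kept probe set was called. The probe sets of Efna2, Efna5, Efnb2, Epha3, Epha4, Ntn1, Robo1 and Slit2 that were not kept were under the limit on all arrays.

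**Figure D3:**
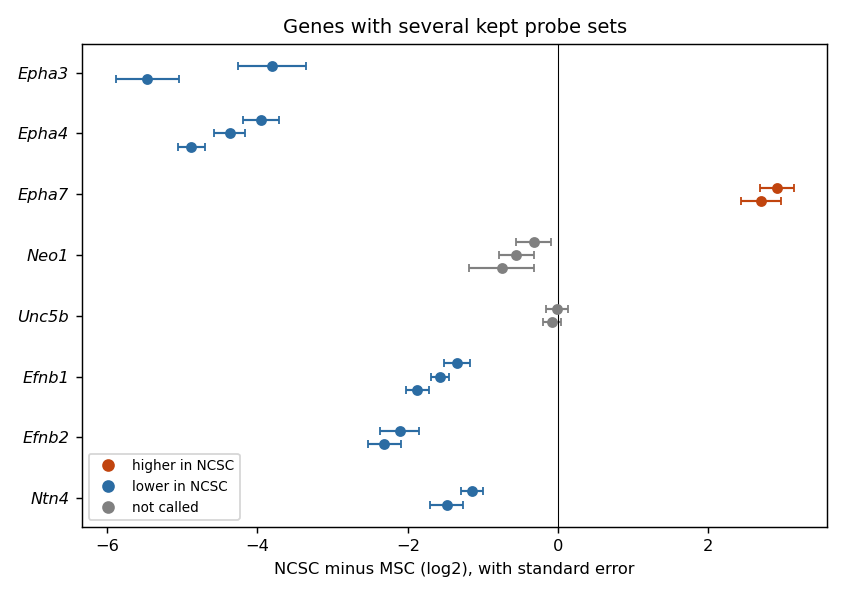
Log2 difference (NCSC minus MSC) and standard error of each kept probe set of the 8 member genes that had more than 1. Coloured points were called when every probe set was tested on its own, and grey points were not. The probe sets of a gene lie on the same side of 0. Those of Epha3 and Epha4, and the Efnb1 probe set nearest to 0, had NCSC means under the limit.

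Genes that act with these receptors inside or at the surface of the cell were taken from a list of 58 partners, of which 45 were tested. Of these 25 were higher and 10 were lower in NCSC, or 77.8% called, against 64.1% of all tested genes (35% higher and 29.1% lower). At 2-fold or more 13 were higher and 5 lower, against 15.1% and 14% of all tested genes. Their median difference was 0.36, against 0.056 over all tested genes. By system, 16 of 24 tested partners of Eph and ephrin proteins were higher and 6 lower, 5 of 10 partners of Slit and Robo were higher and 3 lower, and 4 of 11 partners of netrin signalling were higher and 1 lower.

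Flrt3, a leucine-rich repeat protein that binds Unc5 receptors, had log2 intensities of 11.11, 11.19 and 11.09 on NCSC 1 to 3 against 3.73, 3.36 and 3.21 on MSC 1 to 3. It was at least 140.0-fold higher in NCSC (limma, adjusted p = 1.98e-07). Its relative Flrt2, which also binds Unc5 receptors, showed the opposite, with 4.99, 4.84 and 6.66 in NCSC against 10.47, 11.01 and 10.46 in MSC. Flrt2 differed by -5.15 ± 0.497 (SE, adjusted p = 0.000232).

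Exchange factors and other regulators of small GTPases were called in both directions. Ngef (ephexin), an exchange factor bound by EphA receptors, had log2 intensities of 8.07, 8.10 and 8.54 on NCSC 1 to 3 against 2.72, 2.73 and 2.72 on MSC 1 to 3, and was at least 18.8-fold higher (limma, adjusted p = 7.23e-07). Chn2, a chimaerin that switches off Rac, was at least 18.7-fold higher in NCSC, and the exchange factor Vav3 at least 2.63-fold. The Rac exchange factor Tiam1 was at least 4.74-fold lower, and Kalrn, another exchange factor used by EphB receptors, differed by -1.32 ± 0.192. Rgs3, which links ephrin-B tails to G proteins, differed by -1.78 ± 0.0846.

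On the Slit and Robo list Gpc1, a heparan sulphate proteoglycan that binds Slit, was higher in NCSC by 4.59 ± 0.161 (SE). Its mean log2 intensity was 14.22 ± 0.0931 (SD, n = 3) in NCSC against 9.63 ± 0.299 in MSC. The actin regulator Enah, which acts with Robo, differed by -1.89 ± 0.213. Adam10, the protease that cleaves ephrins, Dag1, a matrix receptor that binds Slit, and Rgmb, a neogenin ligand, were chosen for mention after their values were seen. Their log2 differences were 1.42 ± 0.115, 2.20 ± 0.0715 and 2.82 ± 0.121, all called. The kept probe sets of each partner named here were called in the same direction where there was more than 1. The calls of Vav3, Tiam1, Ngef and Gpc1 rest on 1 kept probe set each, for Vav3 and Tiam1 out of 3.

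**Figure D4:**
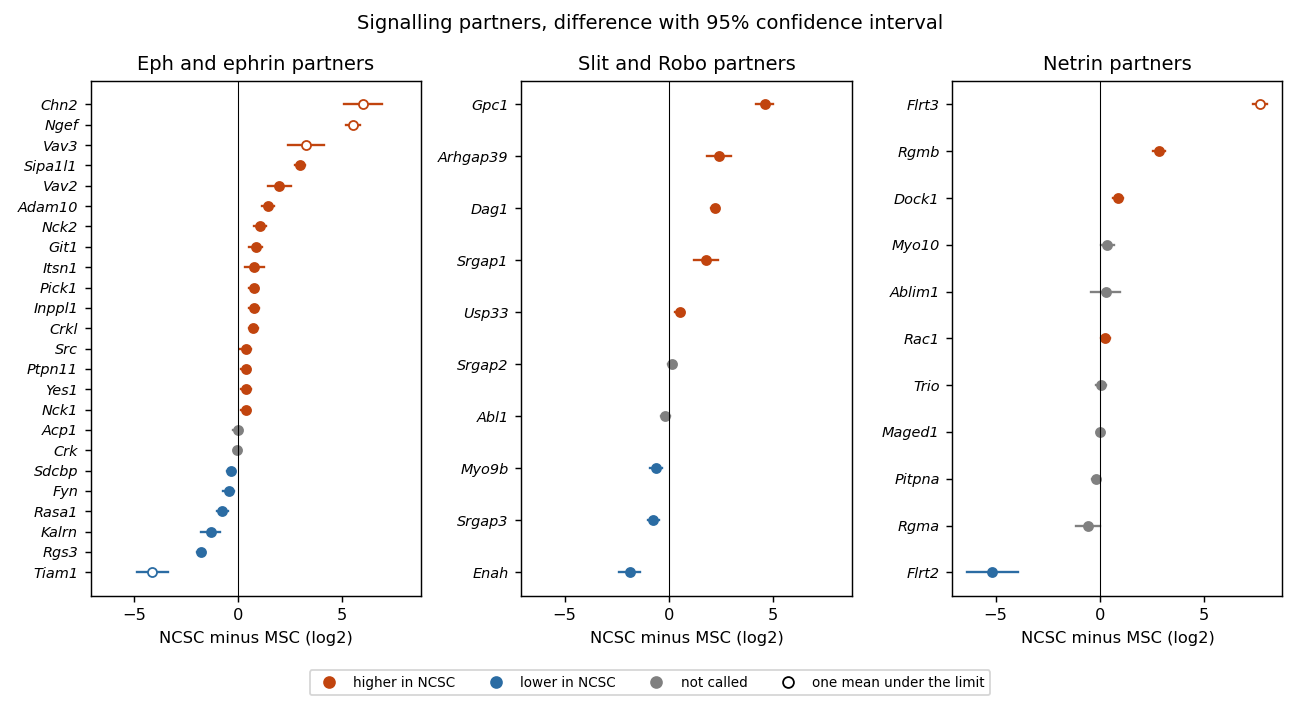
Log2 difference (NCSC minus MSC) and 95% confidence interval of the 45 tested signalling partners, sorted within the Eph and ephrin, the Slit and Robo and the netrin lists. Filled coloured points were called, grey points were not, and open points had one group mean under the limit. Flrt3 and Flrt2 lie at opposite ends of the netrin list.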

How the data were processed

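The authors deposited GCRMA intensities for each probe set, per the submitters' processing notes (version not stated), which run from 4.36 to 116597 and are therefore linear. GCRMA removes probe-specific background, normalizes the arrays to each other and summarises each probe set. Intensities were taken to log2, and no further normalization was applied. Low values are compressed toward a shared floor of 2.12, which shrinks the spread of dim genes. The 6 columns were matched to samples by name. Probe sets annotated to 1 gene (34945) were kept when above 4 on the log2 scale on at least 3 of 6 arrays, and each gene was represented by its brightest kept probe set. Differences were tested by a two-sided moderated test in limma 3.58.1 (R 4.3.3, lmFit and eBayes without covariates) with Benjamini-Hochberg adjustment over 10501 genes, after a test on simulated data. Every member gene is named, with the 5 called partners of most positive and the 5 of most negative difference. The members and lists were chosen with earlier results of these data known. With 3 arrays a group, precision is limited by their number.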

Additional observations from a re-analysis of the deposited data

How the results depend on the processing

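Over 16 alternatives (no filter, a limit of 6, the mean of the kept probe sets, each probe set on its own, a floor at 4, a trended and robust fit, array weights, quantile normalization, a replicate block, each array left out, and NCSC 3 and MSC 2 left out together, the last chosen after seeing the data), 102 of 112 counts stayed within 1.5 times the reported value. The exception was the count of ligands higher in NCSC, reported as 2. In limma's test it was 1 with the limit of 6 and with the trended and robust fit, 0 with each probe set on its own, with quantile normalization and with the replicate block, and 0 to 2 with single arrays left out. At an unadjusted p under 0.05 the counts behind a 0 were 2 with each probe set on its own, 1 with quantile normalization, 1 with the block, and 1 or 0 with an array left out. The cause was not tested. Of 445 values of single genes 18 lost their call, all of Efna4 or Ntn1, 5 gained one (Neo1, Ephb4 and Efna2) and 0 called values reversed. Same-numbered arrays did not deviate together (correlations of -0.0985, 0.0621 and 0.0729), so the numbers are not taken as pairs. With the replicate block 6257 genes were called against 6731, and 3 receptors were called higher against 2, with Ephb4 added (adjusted p = 0.0434). Leaving out single arrays moved the count of all genes called between 5706 and 7184, and leaving out NCSC 3 and MSC 2 together gave 7773. For values near the floor neither the size of a difference nor its absence can be read.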
